A study of Homo sapiens with 24 samples.

Results

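The minor spliceosome is built on 4 small nuclear RNAs (snRNAs) of its own, and the genes that encode them, RNU11, RNU12, RNU4ATAC and RNU6ATAC, are described here. A row of the small RNA table was taken where its class was not exactly lncRNA and a name on it equalled one of the 4 symbols. The RNU11 row has a merged class that lists lncRNA beside snRNA, and counts below as outside lncRNA rows. That gave 4 rows, 1 for each gene, of 175946 features in the table, and the same rows were followed in the 1231278 rows of the chromatin accessibility table. The rule uses names and classes and no measured value, but it was set with earlier results of these data known. All 4 rows passed the filter on low counts in both assays.

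The cells were HEK293, an established human embryonic kidney line with the genotype given as Wild Type. They overexpressed eGFP, an enhanced green fluorescent protein that served as the control (GFP below), or a lamin gene: LMNA for lamin A/C, LMNB1 for lamin B1, LMNB2 for lamin B2. Lamins are the filament proteins under the inner nuclear membrane. Small RNA sequencing and ATAC-seq, which counts insertions of a transposase into open chromatin, were each done on 3 replicate libraries per group, 12 libraries per assay and 24 in all. The title places the series in work on RNA polymerase III and nuclear organisation. The vector, the time of overexpression and whether replicates came from separate cultures are not given in the sources used here, so p-values measure only the spread between these libraries, which may be technical.

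The minor spliceosome removes the small class of introns known as U12-type, found in genes of DNA repair, RNA processing and signalling among others. U11 pairs with the start of such an intron and U12 with its branch point, and both travel in a joint particle. U4atac carries U6atac in paired form until U6atac takes its place in the catalytic centre. U11, U12 and U4atac are transcribed by RNA polymerase II and U6atac by RNA polymerase III, and all of these promoters lie upstream of the gene and bind the same snRNA activating complex. Each minor RNA has a counterpart in the major spliceosome: U1 for U11, U2 for U12, U4 for U4atac and U6 for U6atac.

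Table totals were 132507051 to 195074742 counts in the small RNA libraries and 156043245 to 290158229 in the ATAC libraries. The spread between replicates of a typical feature (edgeR's biological coefficient of variation) was 0.227 in small RNA and 0.085 in ATAC. The small RNA GFP libraries stood apart in composition: GFP replicate 1 had the lowest TMM scaling factor of the 12, 0.631, and GFP replicate 3 the highest, 1.309, so values without them are given where they matter. Of the microRNA marker lists, the 7 genes of the kidney epithelial line list summed to 26.8 to 359 CPM (counts scaled to a common library size), both ends in GFP libraries. The blood, liver, muscle, neuron and pluripotent lists each summed to at most 0.0531 CPM in every library, and 4 of the 5 pluripotent markers were at 0 in all 12 libraries.

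The 4 genes lie on 4 chromosomes in different surroundings. Positions are those of the deposited tables on build GRCh38, which the submitters' processing notes name, and neighbours are from RefSeq (GRCh38.p14). RNU11 occupies chr1:28648574-28648758 on the plus strand, inside the long noncoding RNA gene TAF12-DT and 330 bp from the gene body of TAF12, a subunit of the transcription factor TFIID. RNU12 occupies chr22:42615219-42615418 on the plus strand, 360 bp from POLDIP3, which runs the other way, and 2446 bp from CYB5R3, a cytochrome b5 reductase. RNU4ATAC occupies chr2:121530855-121531032 on the plus strand, within the span of CLASP1, a microtubule-binding protein gene, and of CLASP1-AS1. RNU6ATAC occupies chr9:134164414-134164589 on the minus strand, overlapped by the noncoding gene LOC124902297 and 4470 bp from WDR5, a histone methyltransferase subunit. These intervals are 185, 200, 178 and 176 bp long, against RefSeq transcripts of 135, 150, 130 and 126 bases.

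The RefSeq promoter entry of POLDIP3 covers the start of the stretch between the divergent POLDIP3 and RNU12 genes, and is shown because the ATAC window of RNU12 reaches 40 bp into it. The 250 bases before the POLDIP3 start, chr22:42614884-42615133 on the minus strand (GRCh38.p14), end 111 bp before the RefSeq start of RNU12. Capitals mark the GC box, GGGCGG or its reverse complement CCGCCC.
POLDIP3: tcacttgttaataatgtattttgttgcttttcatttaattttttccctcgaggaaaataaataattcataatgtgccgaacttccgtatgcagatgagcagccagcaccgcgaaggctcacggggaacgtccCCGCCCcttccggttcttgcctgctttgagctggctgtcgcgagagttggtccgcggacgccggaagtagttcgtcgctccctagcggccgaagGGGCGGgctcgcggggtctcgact
Both strands were searched for 2 motifs that do not overlap here. The GC box had 2 matches, and 42.6% of 35116 RefSeq promoter windows of the same 250 bases hold at least 1. The octamer ATGCAAAT, known from the distal element of snRNA promoters, had 0 matches in this window, and 1.63% of the windows hold it.

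The small RNA levels of the genes formed a steep order, which was the same in 12 of 12 libraries. Levels between genes are given as CPM per kilobase of interval (CPM scaled by TMM), averaged over the 12 libraries. RNU12 was highest at 1228 CPM per kb and RNU11 next at 729. RNU4ATAC followed at 6.74 and RNU6ATAC at 0.548. RNU12 exceeded RNU11 by 1.69-fold on this scale, with a range over libraries of 1.21 to 2.80-fold. RNU11 exceeded RNU4ATAC by 108-fold (69.8 to 144), and RNU4ATAC exceeded RNU6ATAC by 12.3-fold (9.26 to 28.0). The di-snRNP partners U11 and U12 thus stood near the top of the table, above 98.4% and 98.8% of tested features in CPM, while U4atac stood above 88.8% and U6atac above 37.7%. Among features outside lncRNA rows alone, U11 and U12 stood above 95.4% and 97.1%, U4atac above 60.0% and U6atac above 13.7%. How efficiently each RNA entered a small RNA library was not tested.

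**Figure D1:**
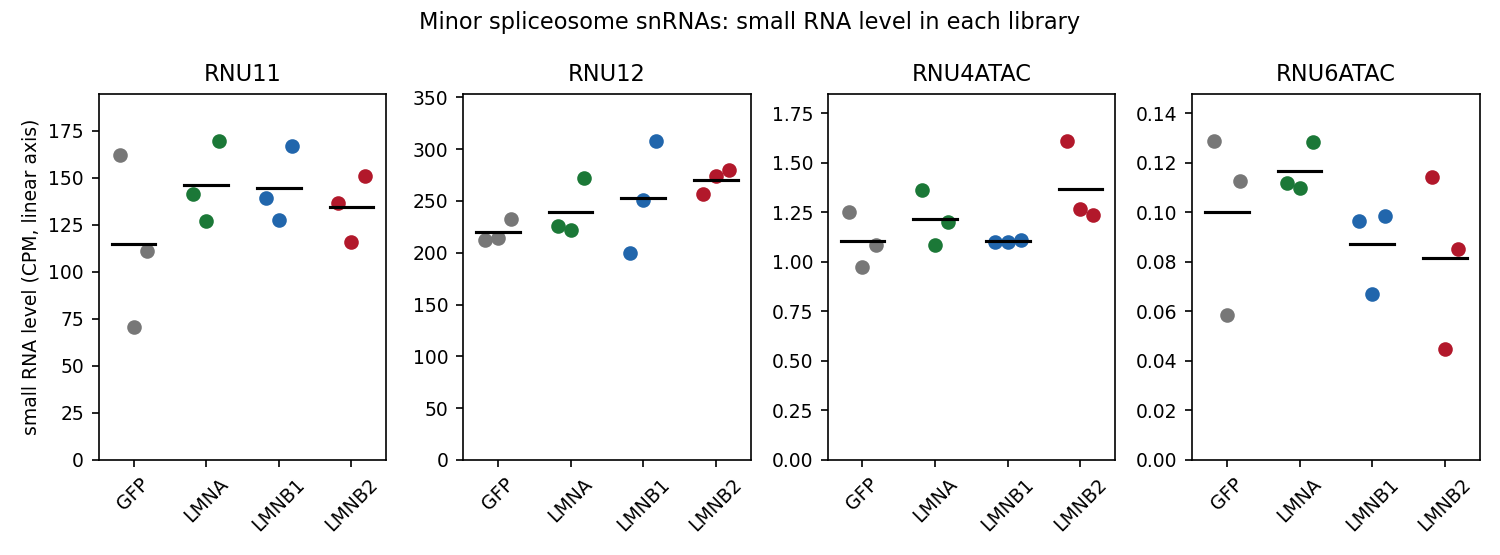
Small RNA level in CPM (vertical axis, linear, a separate scale per gene) for each of 3 libraries per group (points) with the group mean (line). RNU11 in GFP spans 70.8 to 162 CPM and covers nearly all lamin values, while the 3 LMNB2 libraries of RNU12 lie above the 3 GFP libraries.

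RNU11, the RNA that recognises the start of the intron, varied most among the control libraries. It was at 162, 70.8 and 111 CPM in GFP replicates 1 to 3 and at 141, 127 and 169 in LMNA. It was at 139, 127 and 167 CPM in LMNB1 and at 136, 116 and 151 in LMNB2. GFP replicate 2 was the lowest of all 12 libraries and GFP replicate 1 the third highest, so the control range overlapped every lamin group. In these bulk libraries, more cells with the RNA and more RNA per cell cannot be told apart. Log2 fold changes over GFP were 0.35 (SE 0.28, 95% interval −0.23 to 0.93) for LMNA, 0.33 (SE 0.28) for LMNB1 and 0.23 (SE 0.28) for LMNB2. None passed, with adjusted p (edgeR, Benjamini-Hochberg over all 33893 tested features) of 0.918, 0.881 and 0.690. The estimate followed the GFP library left out: without GFP replicate 1 it was 0.66, 0.66 and 0.55, and without GFP replicate 2 it was 0.11, 0.09 and −0.03. Without GFP replicate 3 it was 0.39, 0.36 and 0.25, and none of these passed either.

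RNU12, the branch point RNA, was the steadiest in the controls. Its levels were 212, 215 and 232 CPM in GFP and 225, 222 and 272 in LMNA. They were 200, 251 and 308 CPM in LMNB1 and 257, 274 and 280 in LMNB2. All 3 LMNB2 libraries lay above all 3 GFP libraries, with group means of 270 and 220 CPM, whereas LMNA and LMNB1 overlapped GFP. LMNB2 and GFP libraries were separated, in either direction, for 22.3% of all tested features. The log2 fold change of LMNB2 was 0.30 (SE 0.23, 95% interval −0.19 to 0.78), with an adjusted p of 0.497, so the difference did not pass. For LMNA and LMNB1 it was 0.13 and 0.20, with adjusted p of 0.976 and 0.900. Without GFP replicate 1 the LMNB2 value was 0.26 and without GFP replicate 3 it was 0.39.

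RNU4ATAC, the chaperone of U6atac, rested on 133 to 267 counts per library. Levels were 1.25, 0.976 and 1.09 CPM in GFP and 1.36, 1.09 and 1.20 in LMNA. They were 1.10, 1.10 and 1.11 CPM in LMNB1 and 1.61, 1.27 and 1.24 in LMNB2. LMNB2 replicate 1 was the highest library, and only LMNB2 replicate 3, at 1.24 CPM, was below the highest control, 1.25. Its log2 fold change of 0.31 (SE 0.16, 95% interval −0.04 to 0.66) had the lowest p of the gene and comparison pairs in small RNA, 0.0754 unadjusted and 0.305 adjusted by edgeR's test. LMNA gave 0.14 and LMNB1 −0.00, with adjusted p of 0.970 and 1.00. The LMNB1 libraries differed from each other by less than counting error alone would give, with a coefficient of variation of 0.712% against a counting error of 7.31% at the mean count of 187.

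RNU6ATAC, the catalytic RNA and the polymerase III gene of the 4, was close to the floor of the assay, at 7 to 22 counts per library. Levels were 0.129, 0.0587 and 0.113 CPM in GFP and 0.112, 0.110 and 0.129 in LMNA. They were 0.0965, 0.0672 and 0.0985 CPM in LMNB1 and 0.114, 0.0447 and 0.0853 in LMNB2. Every lamin group overlapped GFP. Log2 fold changes were 0.21 (SE 0.33), −0.17 (SE 0.35) and −0.25 (SE 0.36) for LMNA, LMNB1 and LMNB2, with adjusted p of 0.975, 0.942 and 0.703. The 95% interval for LMNB2 ran from −1.04 to 0.47, so changes of that range are compatible with these libraries. Counting error at the mean count of 15.1 was 25.7%.

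Against the whole table, 0 of 4 genes were called in any small RNA comparison at an adjusted p under 0.05. With LMNA 0% of the 33893 tested features were called (24 features by DESeq2's test), with LMNB1 0.0384% and with LMNB2 2.65%. A joint test of whether the 3 lamins differ from each other called 1.95% of features and 0 of the 4 genes, whose adjusted p lay between 0.526 and 0.955. At an unadjusted p under 0.05, edgeR's test counted 1852, 1866 and 6757 features for LMNA, LMNB1 and LMNB2, none of them among the 4 genes. Libraries of lamin and GFP did not overlap in CPM for 0 of 4 genes with LMNA (9.49% of features), 0 of 4 with LMNB1 (10.1%) and 1 of 4, RNU12, with LMNB2 (22.3%). The median log2 fold change of the 4 was 0.17, 0.10 and 0.26, beside −0.05, −0.05 and −0.04 over all features. The lamin comparisons share the 3 GFP libraries, so their values are not independent of each other.

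**Figure D2:**
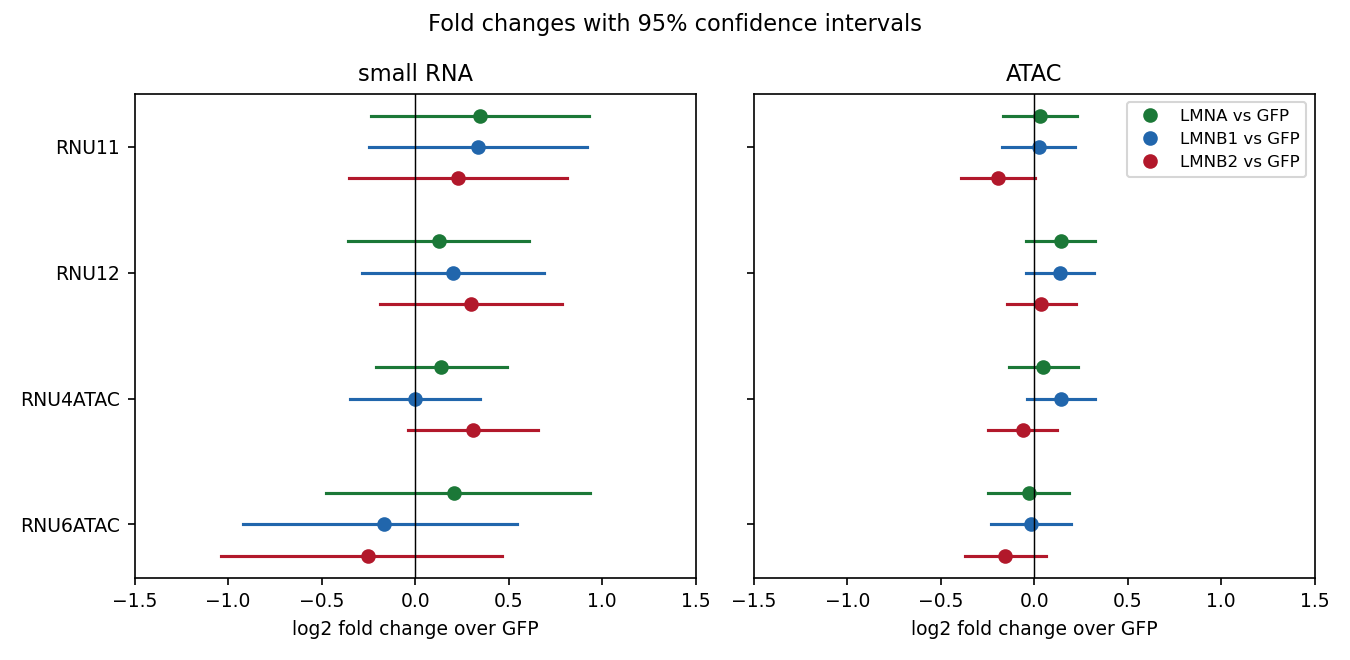
Log2 fold change over GFP (horizontal axis) of each gene in small RNA (left) and ATAC (right), with 95% confidence intervals, for LMNA (green), LMNB1 (blue) and LMNB2 (red). Intervals in small RNA reach from −1.04 to 0.94, those in ATAC are narrower, and every interval includes 0, that of RNU11 in ATAC with LMNB2 barely so, with an upper end of 0.00.

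Longer noncoding rows span all 4 genes, and at RNU11, RNU12 and RNU4ATAC their counts were close to those of the gene. The row lnc-SERHL2-4 over RNU12 held 24710 to 53110 counts, only 5 to 18 more per library than RNU12 itself. The rows of LINC01715 that contain RNU11 whole drew 99.8% to 99.9% of their counts from it, while the LINC01715 rows that stop before the gene held 1 to 8 counts. AC012447.1, over RNU4ATAC, drew 88.2% to 97.5% of its counts from the snRNA. The counts of these noncoding rows were thus nearly all reads of the snRNA interval. RNU6ATAC lies within a far longer signal recognition particle row, which held 54 to 93 counts. The RNU6ATAC count was 8.75% to 27.8% of the count of that row. A row that ends 8 bases past the RefSeq start of RNU11 held 0.971% to 1.70% of the RNU11 count (median 1.17%).

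Dispersed copies of these RNAs add little except for U6atac. Rows named as copies of the 4 families numbered 50, a list made after the row names were seen, and 2 of them passed the filter on low counts. The 3 U11 copies held 7 counts over all 12 libraries against 253084 for RNU11. The 11 U4atac copies held 63 counts, 2.80% of the RNU4ATAC total. The 35 U6atac copies held 236 counts, 130% of the 181 of RNU6ATAC, and 156 of them came from a copy at chr5:56297538-56297714, at 7 to 24 counts per library. That copy was at 0.469 CPM per kb, near the 0.548 of RNU6ATAC. How reads that match both were assigned is not given in the sources used here, so the RNU6ATAC count is uncertain. The U12 copy, at chrX:47132645-47132851, held 505 counts, 0.109% of the RNU12 total. Its log2 fold change with LMNB2 was −0.57 (SE 0.26, unadjusted p 0.0338, adjusted p 0.213, edgeR), opposite in sign to RNU12, and neither passed. In that comparison 6757 of 33893 tested features had an unadjusted p under 0.05 by edgeR's test.

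Partner RNAs were compared as ratios of counts within a library, which do not depend on scaling between libraries. RNU11 counts were 0.330 to 0.764 of RNU12 counts, with both ends in GFP: 0.764, 0.330 and 0.478 in replicates 1 to 3. In the lamin groups the ratio was 0.422 to 0.697, inside the control range. The RNU4ATAC to RNU6ATAC count ratio was 9.73, 16.6 and 9.65 in GFP and 14.1, 28.3 and 14.5 in LMNB2. The highest value came from LMNB2 replicate 2, the library with 7 RNU6ATAC counts, and the groups overlapped. The LMNB2 difference in log2 ratio was 0.63, with group means of 4.16 (SD 0.57, n = 3) and 3.54 (SD 0.45, n = 3) and a two-sided exact permutation p of 0.30. Without LMNB2 replicate 2 the difference was 0.30, and leaving out each other library gave at most 0.89. The smallest p that 3 against 3 libraries allow is 0.10, and after adjustment over the 30 ratio tests made here each was 1.0.

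**Figure D3:**
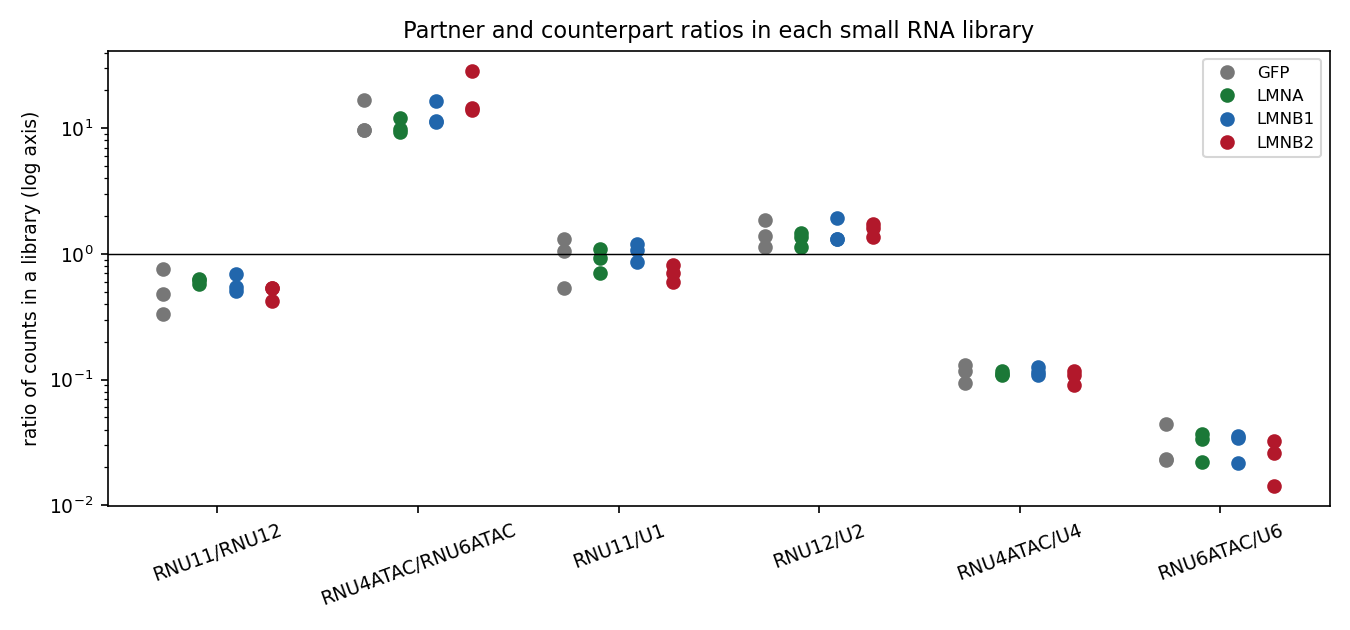
Ratio of counts in each of the 12 small RNA libraries (points, log axis) for the 2 partner pairs and for each minor snRNA over its major counterpart, by group. RNU12/U2 lies above 1 in every library, RNU4ATAC/U4 between 0.0912 and 0.130, and RNU6ATAC/U6 between 0.0143 and 0.0443, with groups overlapping.

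Set beside the major spliceosome, U11 and U12 were near or above a row of their counterpart, and U4atac and U6atac were well below. Per kilobase, the RNU1-1 row with the highest count stood at 0.979 of RNU11 (median of 12 libraries, range 0.667 to 1.62). The RNU2-1 row stood at 0.609 of RNU12 (0.437 to 0.744), so RNU12 was higher in every library. RNU4-2 was 8.28-fold above RNU4ATAC (7.13 to 10.2) and the RNU6-1;RNU6-9 row 38.7-fold above RNU6ATAC (25.1 to 78.0). The table holds 6 RNU1-1 and 12 RNU2-1 rows, and the mean counts of the RNU2-1 rows lay between 26078 and 26474 per library. Such near-equal counts mean that a row does not measure 1 gene copy by itself, so these ratios compare rows and not whole RNA pools.

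The same ratios differed between groups by less than their spread. RNU4ATAC/U4 in counts was the tightest, at 0.0941, 0.117 and 0.130 in GFP and 0.117, 0.108 and 0.0912 in LMNB2, and the groups overlapped. The LMNB2 difference was −0.11 in log2 ratio, with a two-sided exact permutation p of 0.50. RNU11/U1 was 1.30, 0.537 and 1.05 in GFP and 0.698, 0.600 and 0.809 in LMNB2, a log2 difference of −0.37 with a two-sided exact permutation p of 0.40. It was −0.75 without GFP replicate 2 and −0.11 without GFP replicate 1. RNU6ATAC/U6 differed by −0.33 and RNU12/U2 by 0.11 for LMNB2, with two-sided exact permutation p of 0.60 and 0.70.

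Chromatin over the genes was open to a similar degree at all 4, in contrast to the RNA levels. In ATAC windows of 426 to 450 bp the mean was 13.5 CPM per kb at RNU12, 9.32 at RNU4ATAC, 8.63 at RNU11 and 7.73 at RNU6ATAC. RNU12 was highest in 12 of 12 libraries, by 1.44-fold over RNU4ATAC. RNU4ATAC was above RNU11 in 10 of 12 libraries, by 1.08-fold, and RNU11 above RNU6ATAC in 11 of 12, by 1.12-fold. The windows held 531 to 2045 counts, and each stood above 72.8% to 84.4% of all tested windows in mean CPM, or 88.6% to 91.1% of those outside lncRNA rows. The 2241-fold span in small RNA per kb between RNU12 and RNU6ATAC thus met a 1.74-fold span in ATAC per kb. The 23 dispersed copies with a tested ATAC window reached at most 0.0748 CPM, against 3.29 CPM or more on average at the 4 genes.

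**Figure D4:**
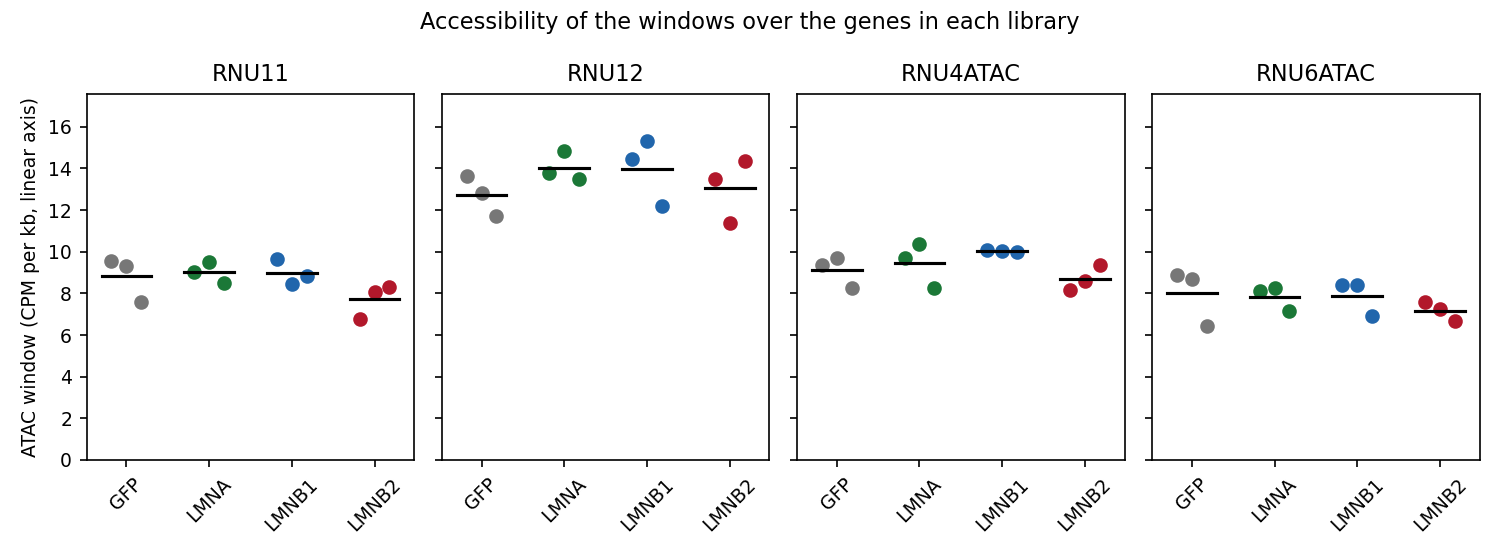
ATAC level in CPM per kb (vertical axis, linear, same scale) of the window over each gene, for each of 3 libraries per group (points) with the group mean (line). All values lie between 6.43 and 15.3 CPM per kb, and the LMNB2 libraries of RNU11, at 6.76 to 8.28, are low but overlap GFP, at 7.59 to 9.58.

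At RNU11 the window was at 4.17, 4.05 and 3.30 CPM in GFP and at 2.94, 3.52 and 3.60 in LMNB2. LMNB2 replicate 1 was the lowest of the 12 libraries, and the other LMNB2 libraries lay between the GFP values. The log2 fold change was −0.19 (SE 0.10, 95% interval −0.39 to 0.00), with p 0.0520 unadjusted and 0.876 adjusted by edgeR's test over 163786 windows. LMNA, at 3.93, 4.14 and 3.69 CPM, and LMNB1, at 4.19, 3.67 and 3.84, gave 0.03 and 0.02. Without GFP replicate 3, the lowest control, the LMNB2 value was −0.29 with an adjusted p of 0.252, and without LMNB2 replicate 1 it was −0.11.

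At RNU12 the window was at 6.13, 5.76 and 5.28 CPM in GFP and 6.21, 6.68 and 6.07 in LMNA. It was at 6.50, 6.89 and 5.50 CPM in LMNB1 and 6.07, 5.11 and 6.46 in LMNB2. All groups overlapped GFP, LMNA by a single pair of libraries. Log2 fold changes were 0.14 (SE 0.09), 0.14 (SE 0.09) and 0.04 (SE 0.09), with adjusted p of 0.979, 0.978 and 0.978 (edgeR). RNU12 with LMNB2, separated in small RNA as 22.3% of tested features were, was not separated in ATAC.

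RNU4ATAC was the gene with separated groups in ATAC, with LMNB1, where 8.46% of all tested windows were also separated. Its window was at 4.01, 4.15 and 3.53 CPM in GFP and at 4.31, 4.30 and 4.27 in LMNB1, so all 3 LMNB1 libraries lay above GFP. Those LMNB1 libraries differed by less than counting error alone would give, with a coefficient of variation of 0.422% against 3.28%. The log2 fold change was 0.14 (SE 0.09, 95% interval −0.04 to 0.32), with an adjusted p of 0.978 (edgeR), and without GFP replicate 3 it was 0.07. In LMNA the window was at 4.15, 4.43 and 3.53 CPM and in LMNB2 at 3.49, 3.68 and 4.01, which overlapped GFP and gave 0.05 and −0.06. RNU6ATAC was at 3.79, 3.71 and 2.74 CPM in GFP. LMNA gave 3.47, 3.52 and 3.05 CPM, LMNB1 3.58, 3.57 and 2.94, and LMNB2 3.23, 3.09 and 2.85. GFP replicate 3 was its lowest library of the 12, all groups overlapped, and fold changes were −0.03, −0.02 and −0.16 on the log2 scale.

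In ATAC, 0 of 4 genes were called in any comparison. Windows called over the table were 0.000611% with LMNA, 0.00305% with LMNB1, 0.00244% with LMNB2 and 0.0916% in the joint test of the 3 lamins. At an unadjusted p under 0.05, edgeR's test counted 8500, 7823 and 9368 windows for LMNA, LMNB1 and LMNB2, none of them over the 4 genes, and 10224 in the joint test, RNU11 among them with an unadjusted p of 0.0384 and an adjusted p of 0.765. That unadjusted p was 0.359 without LMNB2 replicate 1 and 0.0878 without lncRNA features. Lamin and GFP libraries did not overlap for 0 of 4 genes with LMNA (9.55% of windows), 1 of 4 with LMNB1 (8.46%) and 0 of 4 with LMNB2 (10.3%). The median log2 fold change of the 4 was 0.04, 0.08 and −0.11, beside −0.00 in each comparison over all windows. No 95% interval of these ATAC fold changes reached below −0.39 or above 0.33 on the log2 scale.

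Accessibility was higher over the genes than over their 5000 bp flanks as a whole, and was lopsided around them. Per base, windows were 12.8-fold above their 5000 bp flanks at RNU11 and 21.5-fold at RNU12, as medians of 12 libraries. At RNU4ATAC and RNU6ATAC they were 17.5-fold and 12.9-fold above. These ratios stood above 96.0% to 97.5% of 10847 tested windows outside lncRNA rows. In the 500 bp flanks, the upstream side of RNU12, toward POLDIP3, was at 6.51 ± 0.35 CPM per kb (SD over 12 libraries) and the downstream side at 0.933 ± 0.140, a mean ratio of 7.15. RNU6ATAC and RNU4ATAC were also more open upstream, by 3.76 and 2.02-fold, in 12 of 12 libraries each. The upstream flank of RNU6ATAC, at 6.50 CPM per kb, was close to its window, at 7.73. That of RNU12 was further below its window, at 13.5. RNU11 was more open downstream, at 2.73 ± 0.41 against 0.697 ± 0.122 upstream, and upstream was higher in 0 of 12 libraries. At RNU11 the near end of TAF12 lies in the uncounted 350 bp between window and upstream flank. With 5000 bp flanks the order turned at RNU11, to 0.935 upstream and 0.428 downstream. It also turned at RNU4ATAC, to 0.513 and 0.557, and held at RNU12 and RNU6ATAC.

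**Figure D5:**
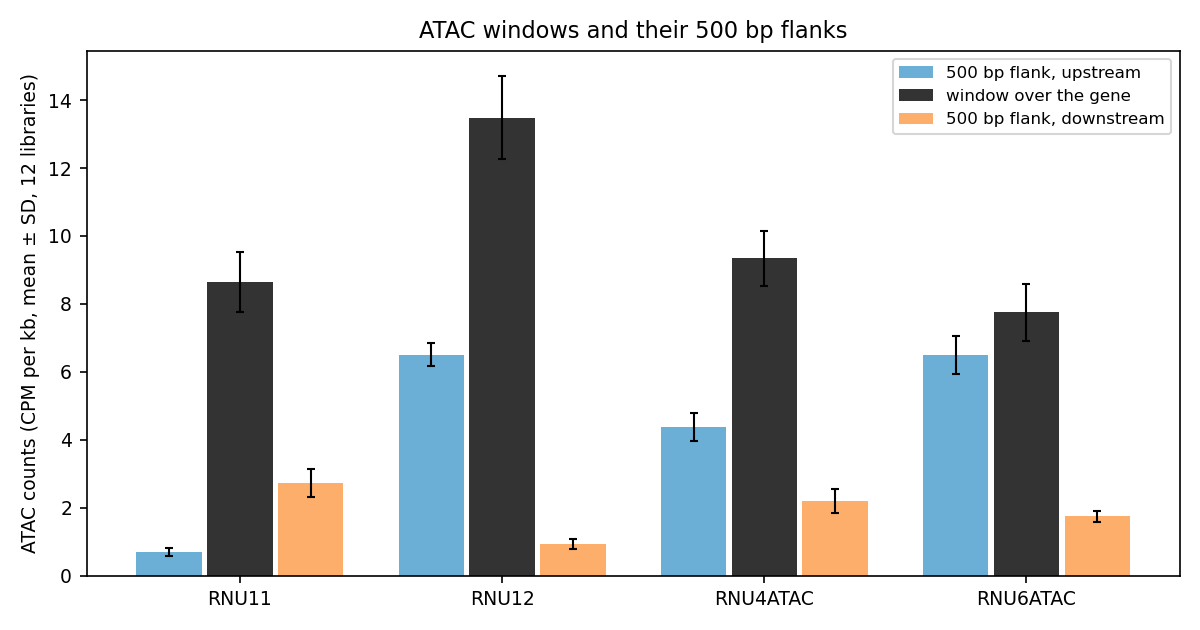
ATAC counts in CPM per kb (bars, mean over 12 libraries; error bars, SD) of the window over each gene and of its 500 bp flanks, upstream and downstream by the strand of the gene. The upstream flank is the higher at RNU12, RNU4ATAC and RNU6ATAC, and the downstream flank at RNU11.

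With 5000 bp flanks, the window over flank ratio did not separate the groups at any gene. At RNU11 the ratio to 5000 bp flanks was 12.5, 13.9 and 11.7 in GFP and 10.6, 12.9 and 11.8 in LMNB2, a log2 difference of −0.11 with a two-sided exact permutation p of 0.50. At RNU4ATAC it was 16.9, 18.1 and 16.4 in GFP and 18.4, 17.7 and 20.2 in LMNB1, a log2 difference of 0.13 with a two-sided exact permutation p of 0.20. LMNB1 and GFP, which did not overlap in CPM at this gene, overlapped in this ratio. With 500 bp flanks they did not overlap, at a log2 difference of 0.17 and a two-sided exact permutation p of 0.10. With 50000 bp flanks that difference was 0.07, with a p of 0.50 by the same test. RNU12 with LMNA also reached a p of 0.10 by this test with 50000 bp flanks, at 0.12.

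Related snRNA genes gave the setting for these values. Of the 46 rows of major spliceosome snRNA genes, 43 were tested in small RNA, and 0, 0 and 2 were called with LMNA, LMNB1 and LMNB2, where 0%, 0.0384% and 2.65% of all features were called. The 2 called rows, RNVU1-19 and RNVU1-1, are variant U1 genes and were higher with LMNB2, with log2 fold changes of 0.92 (SE 0.20) and 0.90 (SE 0.20) and adjusted p of 0.0284 and 0.0316 by edgeR's test. RNU11, the counterpart of U1, had 0.23 in that comparison. The median log2 fold change of the 43 was 0.24, 0.11 and 0.16, beside −0.05, −0.05 and −0.04 over all features. Copies in this list share reads and are not independent.

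Divided by polymerase, 38 tested rows of RNA polymerase II snRNA genes, which include RNU11, RNU12 and RNU4ATAC, had medians of 0.25, 0.12 and 0.17 beside −0.05, −0.05 and −0.04 over all features, with 0, 0 and 2 called against the same 2.65% of all features with LMNB2. The 18 tested rows of RNA polymerase III genes with upstream promoters, the class to which RNU6ATAC belongs, had medians of 0.13, −0.18 and −0.09. The medians over all features were −0.05, −0.05 and −0.04. In each comparison 0 rows were called, where 0%, 0.0384% and 2.65% of all features were called. The lowest unadjusted p of this list with LMNB2 were those of the Y RNA genes RNY1 and RNY5. Their log2 fold changes were 0.55 and 0.54, with adjusted p of 0.228 and 0.243 (edgeR). In ATAC, 0 rows of either list were called, where 0.000611%, 0.00305% and 0.00244% of all windows were called. The medians were 0.05, 0.08 and −0.03 for polymerase II genes and 0.04, 0.03 and −0.08 for polymerase III genes. Over all windows the median was −0.00 in each comparison.

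Across the 12 small RNA libraries the 4 genes were only loosely alike. Pearson's r of log2 CPM was 0.38 between the partners RNU11 and RNU12 and 0.29 between RNU4ATAC and RNU6ATAC. It was highest between RNU11 and RNU6ATAC, at 0.61, and lowest between RNU12 and RNU6ATAC, at −0.17. RNU6ATAC had a coefficient of variation of 28.2% over the 12 libraries, against a counting error of 25.7%, so its r values are uncertain. Of 2672 other features at or above the median level, the most like RNU11 were a Y RNA copy named RF00019 (r = 0.93) and the transfer RNA genes tRNA-Met-CAT-3-3 (0.90) and tRNA-Cys-GCA-12-1 (0.87). RNU12 was closest to a signal recognition particle RNA copy (0.80), SNORD111B (0.77), a small nucleolar RNA, and a precursor row named mir-692 (0.73). RNU4ATAC was closest to signal recognition particle RNA copies on chromosome 12 (0.89), and RNU6ATAC to tRNA-Ala-AGC-19-1 (0.88) and, among snRNAs, a U2 copy on chromosome 3 (0.87) and the variant U1 gene RNVU1-15 (0.84). The values share library, depth and scaling, and are a description of these 12 libraries.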

How the data were processed

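The authors deposited raw read counts, a table per assay; column sums vary from library to library and no value is fractional. The aligner, the counter, the use of strand, and the treatment of duplicates and of reads that match several places are not given in the sources used here; the submitters' processing notes name the build GRCh38. These choices affect genes with near-identical copies, and short RNAs lose or gain counts with the library's size range. Libraries were assigned to groups by the labels' titles, with each count column matched to a single sample.

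Each assay had a single model over its 12 libraries, run on the counts with edgeR 4.0.16 under R 4.3.3, with a mean per group, filterByExpr, TMM scaling and robust quasi-likelihood tests. Adjusted p-values are Benjamini-Hochberg over all tested features, and a call is an adjusted p under 0.05. Log2 fold changes use a prior count of 2, while standard errors and intervals come from the fit without it. CPM use TMM-scaled totals. ATAC windows extend 125 bp beyond each interval, and flanks start 350 bp farther out. Ratios were compared by two-sided exact permutation tests. Simulated counts with 200 changed features of 32300 in the small RNA design gave 35 calls among them (17.5%), at a median absolute log2 change of 0.98, and all 200 of 162292 in the ATAC design. Descriptive tables used Python 3.11.15 with pandas 2.3.3.

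The genes, lists, tests and naming rule were chosen with earlier results of these data known. All 4 genes are named, with overlapping noncoding rows, counterparts, the 3 most similar features per gene and up to 4 list members with the lowest p. Other copies named were chosen after their values were seen. The alternatives were DESeq2's size factors, total counts, other count filters, a DESeq2 1.42.0 test, fewer libraries in the fit, the replicate number as a block, tables without lncRNA or mitochondrial features, scaling on ATAC flanks, other flank widths, and leaving out each library. Replicate pairs within a group differed by more than sampling noise, with a chi-square per degree of freedom of at least 3.15.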

Additional observations from a re-analysis of the deposited data

How the results depend on the processing

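Over 699 fits of the 32 gene and comparison results, main settings and alternatives together, 0 gave an adjusted p under 0.05. The lowest was 0.0908, for RNU4ATAC in ATAC with LMNB1 under total counts. Of 715 alternative values of a difference, 84 had the other sign, all of differences not called, and in none was the cause tested. The other 168 alternative values are adjusted p of the joint test, which has no sign, and 0 were under 0.05. Scaling by total counts moved the median of all features to 0.11 and 0.19 in small RNA with LMNB1 and LMNB2, and to 0.19 and 0.11 in ATAC, against −0.05, −0.04 and −0.00. With it RNU6ATAC in ATAC was 0.056 for LMNA and 0.17 for LMNB1, and RNU4ATAC was 0.049 for LMNB2. RNU4ATAC in small RNA with LMNB1, at −0.00, was 0.17 under total counts, 0.017 with DESeq2's size factors, 0.019 in DESeq2's test and 0.040 with no count filter. It was 0.0046 with a mean of at least 10 counts, 0.0031 in a fit of only the libraries compared and 0.0079 with the replicate block. RNU12 in small RNA with LMNA was −0.010 without lncRNA features. Over all alternatives, the LMNB2 values in small RNA ran from 0.21 to 0.56 for RNU4ATAC and from 0.26 to 0.50 for RNU12. The joint edgeR test of RNU4ATAC in small RNA had an unadjusted p of 0.0394 without lncRNA features (adjusted 0.263), against 0.191 in the main fit.

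Whether libraries with the same replicate number share a culture or day is not given in the sources used here. Same-numbered libraries of different groups had deviations with r from −0.04 to 0.23 in small RNA and −0.08 to 0.19 in ATAC. For different numbers r ran from −0.21 to 0.07 and from −0.15 to 0.09. Within every group, replicate 2 was the lowest library for RNU11 and RNU6ATAC in small RNA, and replicate 3 for RNU6ATAC in ATAC. No other gene and assay had a replicate number that was lowest in every group. The replicate block changed no call among the 4 genes and moved no log2 fold change by more than 0.04, with RNU11 in small RNA at 0.39, 0.37 and 0.27. Over the table it called 60 windows with LMNA in ATAC in place of 1 and 553 in the joint test in place of 150.

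Leaving out 1 library at a time turned the sign of 30 of 54 differences, and 22 of the other 24 moved by over 1.5 times under at least 1 such omission. In small RNA the range was −0.027 to 0.55 for RNU11 with LMNB2, −0.072 to 0.089 for RNU4ATAC with LMNB1, and −0.013 to 0.37 and −0.52 to 0.011 for RNU6ATAC with LMNA and LMNB2. In ATAC it was −0.070 to 0.092 for RNU11 with LMNA, −0.075 to 0.088 with LMNB1, −0.022 to 0.14 for RNU4ATAC with LMNA and −0.034 to 0.13 for RNU12 with LMNB2. For RNU6ATAC in ATAC it was −0.17 to 0.051 with LMNA and −0.15 to 0.071 with LMNB1. The log2 ratio of RNU11 to RNU12 ranged from −0.068 to 0.54 for LMNB1 and −0.29 to 0.32 for LMNB2. That of RNU4ATAC to RNU6ATAC ranged from −0.29 to 0.10 for LMNA and −0.034 to 0.40 for LMNB1. RNU11/U1 ranged from −0.39 to 0.25 for LMNA and −0.18 to 0.46 for LMNB1. RNU12/U2 ranged from −0.31 to 0.049, −0.12 to 0.25 and −0.057 to 0.30 for LMNA, LMNB1 and LMNB2. RNU4ATAC/U4 ranged from −0.15 to 0.086 for LMNA and −0.090 to 0.14 for LMNB1. RNU6ATAC/U6 ranged from −0.093 to 0.39, −0.12 to 0.36 and −0.58 to 0.013 for LMNA, LMNB1 and LMNB2. For the window over flank ratio in ATAC the range was −0.048 to 0.083 for RNU11 with LMNB1 and −0.029 to 0.12 for RNU12 with LMNB2. It was −0.096 to 0.076 and −0.035 to 0.033 for RNU4ATAC with LMNA and LMNB2, and −0.14 to 0.00071 and −0.12 to 0.026 for RNU6ATAC with LMNA and LMNB1. With 500 bp flanks the ratio difference was −0.090 and −0.045 for RNU11 with LMNA and LMNB1, and 0.024 and 0.081 for RNU4ATAC with LMNA and LMNB2. With 50000 bp flanks it was −0.017 for RNU11 with LMNB1.

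The number of features called over the table depended on the setting. In small RNA it ran from 0 to 304 for LMNA (main 0, 304 without GFP replicate 3), 1 to 127 for LMNB1 (main 13), 21 to 2101 for LMNB2 (main 897) and 79 to 3874 in the joint test (main 662). In ATAC it ran from 0 to 222 (main 1, 222 without GFP replicate 3), 1 to 110 (main 5), 0 to 116 (main 4) and 2 to 1691 (main 150). With LMNB2 in small RNA, 646 calls were higher and 251 lower, against 281 and 1 under total counts. In ATAC under total counts the split was 45 higher and 65 lower for LMNB1, against 3 and 2, and 13 and 86 for LMNB2, against 2 and 2. Depth limited RNU6ATAC most, at 7 to 22 counts per small RNA library.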
